A study of Homo sapiens with 60 samples.

Results

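The step from 20 to 100 µg/mL of a hot-water extract of Poria Cocos, a wood-decaying fungus whose sclerotium is used in herbal medicine, was examined in HepG2 cells. HepG2 is an established human hepatocellular carcinoma line that keeps much of the secretory and metabolic programme of hepatocytes. The comparison uses 6 of the series' 60 libraries, 3 at each dose, chosen by their labels and by no measured value. Gene expression was measured by RNA sequencing after 24 h, in 20 groups of 3 that also include vehicle, wortmannin and 5 other herbal water extracts. The groups used are Poria at 20 and 100 µg/mL, with Poria at 500 µg/mL, vehicle, and the 20 and 100 µg/mL groups of Atractylodis Rhizoma (Atractylodes) and Glycyrrhizae Radix (licorice) for context. All groups are the same cell line in the same culture medium, with no genetic change. The vehicle is 0.1% DMSO in the sample labels and another percentage in the series' design text, and the extract groups' labels name no DMSO. Whether DMSO differed between the groups is therefore not known from the labels. Nothing in the labels says that the 3 replicates of a group came from separate cultures, so the spread between them may be technical. Unless stated otherwise, p-values come from a fit of all 60 libraries. They measure the spread within groups, pooled over the 20 groups, and not that of the 6 libraries alone. Each group is 1 preparation of extract on 1 line.

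Several stress and growth programmes that can be read in such a table work as follows. NRF2 is a transcription factor that is held down by KEAP1 and, once released by electrophiles or oxidants, binds antioxidant response elements and drives genes for glutathione synthesis, thioredoxin recycling and quinone and carbonyl reduction. Immediate early genes such as EGR1 and FOS are induced within minutes of MAP kinase signalling, through serum response factor bound to CArG boxes, and many of their partners are feedback inhibitors. Metallothioneins are small cysteine-rich proteins that bind zinc and copper, and their genes are driven by the zinc sensor MTF1 through metal response elements. In hepatocytes these programmes run beside the production of plasma proteins, cholesterol and bile acids.

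The bases upstream of 4 genes are printed here because their lists hold the largest falls and rises of the step. They are the 250 bases before the first listed start of each gene, from RefSeq on GRCh38.p14, 5′ to 3′ on the gene's strand. Capitals mark the letters of the motif searched on both strands. For the metallothionein genes MT1X (chr16:56682220-56682469, plus strand) and MT2A (chr16:56608334-56608583, plus strand) this is the metal response element, TGCACNC or TGCGCNC, with 4 and 7 matches. For GCLM (chr1:93909431-93909680, minus strand), a subunit of the enzyme that starts glutathione synthesis, it is the antioxidant response element TGACNNNGC, with 1 match. For EGR1 (chr5:138465229-138465478, plus strand) it is the CArG box, with 2 matches.
MT1X: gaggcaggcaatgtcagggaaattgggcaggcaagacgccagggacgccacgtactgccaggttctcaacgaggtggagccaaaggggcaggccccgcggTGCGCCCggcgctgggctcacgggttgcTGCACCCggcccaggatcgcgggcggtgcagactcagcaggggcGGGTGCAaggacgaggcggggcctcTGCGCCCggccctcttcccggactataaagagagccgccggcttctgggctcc
MT2A: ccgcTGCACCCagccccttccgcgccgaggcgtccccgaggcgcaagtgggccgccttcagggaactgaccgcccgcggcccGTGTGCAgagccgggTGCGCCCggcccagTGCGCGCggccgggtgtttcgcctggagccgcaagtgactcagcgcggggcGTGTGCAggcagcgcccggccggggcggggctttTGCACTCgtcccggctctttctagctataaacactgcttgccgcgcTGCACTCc
GCLM: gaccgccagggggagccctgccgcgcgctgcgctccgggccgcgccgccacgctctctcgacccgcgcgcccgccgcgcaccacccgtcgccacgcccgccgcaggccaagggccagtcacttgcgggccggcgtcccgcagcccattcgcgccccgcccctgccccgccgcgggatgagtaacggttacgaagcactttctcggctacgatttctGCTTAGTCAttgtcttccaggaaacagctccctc
EGR1: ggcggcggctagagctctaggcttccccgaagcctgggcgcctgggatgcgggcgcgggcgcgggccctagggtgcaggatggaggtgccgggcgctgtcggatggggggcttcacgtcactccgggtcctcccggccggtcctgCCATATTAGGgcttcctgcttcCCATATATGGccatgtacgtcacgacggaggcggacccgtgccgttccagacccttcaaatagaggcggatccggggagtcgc
At least 1 match is present in 24.83% of 35114 windows for the metal response element, 10.91% for the antioxidant response element and 1.16% for the CArG box, and 3 or more metal response element matches in 1.58%. A match describes the letters in this window and is not a measured binding site. Of the list members with a window in the RefSeq table, 5 of 8 metallothionein and zinc genes, 5 of 18 NRF2 genes and 1 of 18 immediate early genes hold their motif. Only the first listed window of each member was searched, whereas the shares above count every window. A member without a match may hold the motif at another start. MT1F, MT1G, MT1E, AKR1B10 and IER3 had no entry in that table.

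Library totals of the 6 libraries ran from 20.9 M to 32.1 M counts, so that 3 counts correspond to 0.0950 to 0.153 CPM, the normalised counts per M counts of a library. Replicate 1 at 100 µg/mL stands apart. It is the smallest of the 60 libraries at 20.9 M. The root mean square distance of its log2 CPM values from the mean of the other libraries of its group was 0.520. In the other 59 libraries it was 0.296 to 0.400, the 0.400 being replicate 3 at 100 µg/mL, whose reference includes replicate 1. Mitochondrial genes took 15.2% of its counts, against 11.2% and 11.9% in replicates 2 and 3 and 12.8%, 12.1% and 10.99% at 20 µg/mL. Where leaving it out ended a call or moved a count by over 1.5 times, the value without it is given beside the result, and its part in the other values was not tested. All 8 hepatocyte markers, such as ALB, AFP, APOB and HNF4A, were at 165 CPM or more in every library. PTPRC, MS4A1, HBB, COL1A2, DCN, LUM, KDR and TEK were at 0 in all 6. Of the blood cell markers, 10 of 13 stayed under 1 CPM. LYZ, which codes for lysozyme, was at 1822, 1629 and 1745 CPM at 20 µg/mL and 2988, 2302 and 2157 CPM at 100 µg/mL. It makes up most of that list's summed level, which ran from 1683 to 1874 CPM at 20 and from 2231 to 3057 CPM at 100 µg/mL. The summed fibroblast and stellate markers went from 69.7 to 74.2 CPM down to 51.2 to 56.6 CPM, mostly ACTA2, with 10 of 13 under 1 CPM. The summed endothelial markers were at 5.28 to 5.65 CPM and 5.97 to 7.38 CPM, and the other epithelial markers, nearly all VIL1, at 329 to 342 CPM and 307 to 328 CPM.

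**Figure D1:**
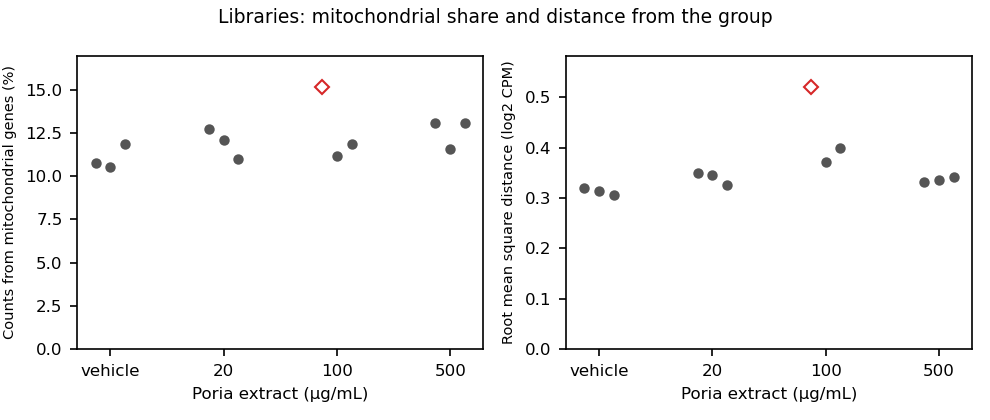
Share of counts from mitochondrial genes (%, left) and root mean square distance of log2 CPM values from the mean of the other libraries of the group (right) in each library of vehicle and of Poria at 20, 100 and 500 µg/mL. The open diamond is replicate 1 at 100 µg/mL, which is highest in both panels at 15.2% and 0.520.

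Of 16093 genes tested in the fit of all libraries, 3031 passed a Benjamini-Hochberg adjusted p of 0.05 (18.8%), 1584 higher at 100 µg/mL (9.84%) and 1447 lower (8.99%). Most changes were small. The median size among these genes was 0.27 on the log2 scale, which is 1.21-fold, and 119 (0.739%) changed at least 2-fold, 63 up (0.391%) and 56 down (0.348%). At least 1.5-fold were 455 (2.83%). Without replicate 1 at 100 µg/mL, 2904 of 16287 genes passed (17.8%), and 2361 passed both ways in the same direction, 1295 up (8.05%) and 1066 down (6.62%). Against a null of 1.2-fold, glmTreat called 418. A fit of the 6 libraries alone called 1475 of 14587 (10.1%), 5.5% higher and 4.61% lower, and 2252 without replicate 1. Counts of list members below are to be read beside the shares of all genes in the same fit. Without replicate 1 those of the fit of all libraries were 9.63% higher and 8.2% lower. Libraries of the 2 doses did not overlap in CPM for 4639 genes (28.8%), of which the 100 µg/mL libraries were the higher for 2305 (14.3%). In bulk RNA a change in the share of cells that express a gene and a change in RNA per cell cannot be told apart.

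The largest rise with no overlap was in AKR1B10, an aldo-keto reductase that reduces retinal and reactive aldehydes and a well-known NRF2 target, on chromosome 7. It was at 54.9, 58.6 and 64.0 CPM at 20 µg/mL and 202, 207 and 189.5 CPM at 100 µg/mL. All libraries at the higher dose lie above all at the lower one, a 3.38-fold difference (log2 1.76 ± 0.057, SE throughout, adjusted p = 3.4e-29). The NRF2 list as a whole moved the same way: 19 of 25 tested members rose and 1 fell, beside 9.84% and 8.99% of all genes, with a list median of 0.33 against -0.003 over all genes. The counts were again 19 and 1 without replicate 1, beside 9.63% and 8.2% of all genes, and 18 and 1 in the 6 libraries alone, beside 5.5% and 4.61%. Glutathione synthesis was represented by GCLM, whose upstream bases are printed above. GCLM was at 35.1, 34.5 and 35.1 CPM and 56.8, 56.1 and 57.0 CPM (log2 0.70 ± 0.052). Its partner GCLC, the catalytic subunit, rose by 0.59, and SLC7A11, which imports cystine, rose by 0.69 from 31.5, 38.1 and 37.6 to 55.1, 60.9 and 56.3 CPM. Genes of thiol recycling also rose. TXNRD1, thioredoxin reductase, went from 189.9, 174 and 182 to 286, 278 and 268 CPM (log2 0.60 ± 0.040). SRXN1, which repairs oxidised peroxiredoxins, went from 111, 98.5 and 101 to 191, 162 and 157 CPM (log2 0.71 ± 0.049). NQO1, the quinone reductase, went from 423, 421 and 433 to 641, 659 and 654 CPM (log2 0.61 ± 0.044). The libraries of the 2 doses do not overlap for any of these 3 genes. The export pump ABCC2 (0.50), AKR1C1 (0.59), TXN (0.48) and the ferritin chains FTL (0.33) and FTH1 (0.19) also rose on the log2 scale.

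The other members of the NRF2 list were 5 that did not pass, HMOX1, EPHX1, PGD, PRDX1 and CBR1, and 1 that fell. HMOX1, heme oxygenase, was at 67.3, 74.0 and 64.8 CPM and 57.9, 64.8 and 64.8 CPM and did not pass (log2 -0.14 ± 0.054, adjusted p = 0.069). IDH1, which makes NADPH in the cytosol, fell from 830.4, 879 and 885 to 652, 701 and 733 CPM (log2 -0.31 ± 0.035). In the pentose phosphate pathway TKT rose by 0.26 and TALDO1 by 0.22, so that of 10 pentose phosphate and NADPH genes 2 rose and 3 fell. Of the 18 tested genes of glutathione synthesis and use 8 rose and 2 fell. Those that fell were the alpha-class transferases GSTA1 (41.4, 41.1 and 47.7 to 28, 24.5 and 24.7 CPM, log2 -0.75 ± 0.076) and GSTA2 (16.6, 16.7 and 18.2 to 10.5, 7.74 and 9.68 CPM, log2 -0.89 ± 0.092). Of 9 tested aldo-keto reductases 3 rose, and AKR1D1, the reductase of bile acid synthesis, fell from 26.6, 28.3 and 28.8 to 17.6, 17.5 and 18.1 CPM. AKR1B10, the AKR1C genes, GSTA1, GSTA2 and, further on, UGT1A1, CYP3A7 and ACSM2A have close copies or shared exons among which reads are divided, so their individual values are less certain.

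SQSTM1, the selective autophagy receptor p62 and itself an NRF2 target, rose with the smallest adjusted p after AKR1B10 among the genes described. It was at 197, 211 and 206 CPM at 20 µg/mL and 376, 410.3 and 389.9 CPM at 100 µg/mL (log2 0.94 ± 0.038, adjusted p = 4.5e-25). Of 24 tested autophagy genes 6 rose and 2 fell, beside 9.84% and 8.99% of all genes, and 7 and 0 without replicate 1. In the 6 libraries alone 4 rose and 0 fell, beside 5.5% and 4.61%. The next largest rise in that list was that of GABARAPL1 (9.73, 7.48 and 8.79 to 13.7, 11.3 and 12.1 CPM, log2 0.51 ± 0.092). Among 26 lysosomal genes 7 rose and none fell, and 3 rose in the 6 libraries alone, beside 9.84% and 5.5% of all genes that rose. CTSB, cathepsin B, was at 275, 291 and 291 CPM and 337, 378 and 376 CPM.

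Immediate early and MAP kinase feedback genes rose in 20 of 27 tested members and fell in none, with a median of 0.52, and in 19 without replicate 1. EGR1, a zinc-finger transcription factor, was at 17.0, 21.0 and 18.7 CPM and 57.4, 55.3 and 51.0 CPM. The 3 higher-dose libraries lie close together and far above the others (2.88-fold, log2 1.53 ± 0.078, adjusted p = 7.1e-21), and the naming rule required no overlap. FOS, a partner in the AP-1 dimer, was low at 0.984, 1.11 and 0.929 CPM and rose to 2.19, 2.88 and 2.95 CPM (log2 1.40 ± 0.22). JUN (0.65), JUNB (0.61) and FOSL1 (0.66) rose less on the log2 scale. IER3, a stress-induced survival gene, went from 61.0, 65.8 and 62.7 to 155, 131 and 134 CPM (log2 1.15 ± 0.060). The feedback arm was also higher. ZFP36, which destabilises cytokine mRNAs, rose by 0.92, the ERK phosphatases DUSP5 by 0.84 and DUSP6 by 0.47, and SPRY4, an inhibitor of receptor tyrosine kinase signalling, by 0.86. DUSP1 was at 12.4, 12.4 and 14.6 CPM and 17.9, 18.5 and 19.6 CPM (log2 0.52 ± 0.070). ETV4, ETV5 and DUSP4, which follow ERK in many cells, were at -0.049, 0.0016 and -0.041 and did not pass. JUND passed with replicate 1 (0.32) and not without it (0.12, adjusted p = 0.48).

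**Figure D2:**
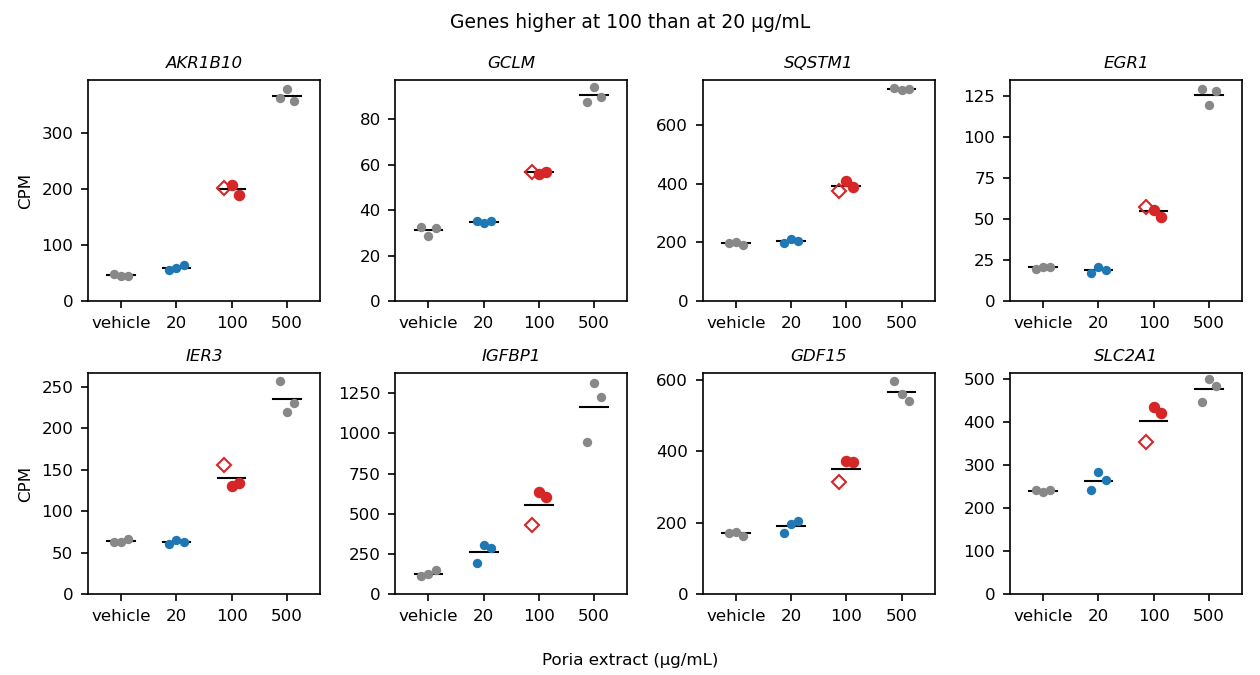
Normalised expression (CPM, linear axes from 0) of 8 genes in each library of vehicle (grey), Poria at 20 µg/mL (blue), 100 µg/mL (red; the open diamond is replicate 1) and 500 µg/mL (grey), with horizontal lines at group means. In all 8 genes the 3 libraries at 100 µg/mL are above the 3 at 20 µg/mL, as for AKR1B10 at 189.5 or more against 64.0 or less. The naming rule required this of AKR1B10, EGR1, IER3 and IGFBP1, and it held for 14.3% of all genes tested.

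Among NF-kB targets 6 of 15 tested rose and 1 fell. ICAM1, the leukocyte adhesion molecule, was at 94.4, 102 and 97.2 CPM and 142, 138 and 133 CPM (log2 0.49 ± 0.037), and BIRC3 went from 6.12, 7.57 and 8.41 to 10.4, 11.1 and 12.4 CPM. The gene that fell was NFKBIA, the inhibitor of NF-kB (-0.32). TNFAIP3 (-0.022) and SOD2 (0.074) did not pass. IER3 stands in this list as well as in the preceding one. Of 15 interferon-stimulated genes 1 passed, and 0 without replicate 1.

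Several genes for secreted and matrix-modifying proteins rose, of which IGFBP1 and CEMIP were among the 12 largest rises and GDF15 and TIMP1 were not. IGFBP1, a hepatic binding protein of insulin-like growth factors that falls with insulin signalling, was at 192, 306 and 285 CPM and 434, 639 and 602 CPM (log2 1.10 ± 0.17, adjusted p = 1.3e-06). The doses did not overlap, as the naming rule required, and replicate 1 was the lowest of its group at both. CEMIP, a hyaluronan-degrading protein, went from 28.3, 39.3 and 35.6 to 76.6, 96.3 and 87.7 CPM (log2 1.34 ± 0.089). GDF15, a stress cytokine, went from 172, 198 and 205 to 313, 372 and 371 CPM (log2 0.88 ± 0.061). TIMP1, an inhibitor of matrix metalloproteinases, went from 23.4, 24.2 and 26.8 to 44.4, 44.6 and 44.6 CPM (log2 0.85 ± 0.065). Of 17 tested matrix genes 7 rose and 1 fell, and of 12 genes of the IGF axis 4 rose and 1 fell. Without replicate 1, and in the 6 libraries alone, the counts that rose were again 7 and 4 and neither list held a gene that fell. TGFB1 rose by 0.51, and FST, which binds and blocks activins, by 0.46.

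The other large rises fall in signalling and adhesion. AKAP12, a scaffold for protein kinases A and C, was at 194, 199 and 195 CPM and 411, 452 and 426 CPM (log2 1.13 ± 0.062, adjusted p = 7e-20). The integrin subunit ITGA2 went from 68.2, 83.4 and 74.3 to 128, 160.2 and 147 CPM (log2 0.94 ± 0.081). PHLDA2, a growth-restraining imprinted gene, went from 3.94, 4.09 and 3.04 to 8.17, 9.92 and 10.2 CPM (log2 1.34 ± 0.14). RASD1, a small GTPase, rose by 1.09, TEX19 by 1.03 and IER5L by 0.97 from means under 5 CPM. In all of these the 3 libraries at 100 µg/mL were above the 3 at 20 µg/mL, as the rule that named them required.

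Glycolysis and hypoxia genes rose in 12 of 31 tested members and fell in none (median 0.26), and in 17 without replicate 1. The 6 libraries alone called 7. SLC2A1, the glucose transporter GLUT1, was at 242, 285 and 265 CPM and 354, 435 and 420.3 CPM (log2 0.61 ± 0.061). ENO2 rose by 0.55, ALDOA by 0.42, PKM by 0.37, HK2 by 0.35 and LDHA by 0.27, and ADM, a vasodilator peptide induced by hypoxia, went from 6.53, 8.33 and 9.12 to 10.4, 14.4 and 13.3 CPM. VEGFA (0.13) and BNIP3 (0.036), both HIF targets, did not pass. PFKFB3, an activator of glycolysis, spread widely at 3.17, 9.79 and 7.82 CPM and 6.53, 13.6 and 10.7 CPM, with replicate 1 lowest at both doses and overlap between them, and did not pass (adjusted p = 0.19). TXNIP, a brake on glucose uptake, went from 56.5, 56.2 and 54.2 to 63.0, 64.3 and 64.3 CPM (log2 0.20 ± 0.046).

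Among the lists of protein synthesis, folding and turnover, the members that rose ran from 2 of 50 cytosolic ribosomal proteins to 16 of 24 ribosome biogenesis genes, beside 9.84% of all genes. Among ATF4 targets 9 of 22 tested rose and 1 fell. ASNS, asparagine synthetase, rose by 0.47 and VLDLR by 0.47, while the serine synthesis genes PHGDH (-0.050) and PSAT1 (-0.042) and the factor itself, ATF4 (-0.11), did not pass, and NUPR1 fell (-0.44). Aminoacyl-tRNA synthetases rose in 12 of 20, none fell, and HARS1 had the largest change (75.3, 79.3 and 75.7 to 90.8, 93.8 and 90.5 CPM, log2 0.26 ± 0.038). The 6 libraries alone called 6 of them. Of 32 proteasome subunits 16 rose and none fell, with a median of 0.16, PSMD14 being at 90.0, 89.8 and 98.0 CPM and 112, 112 and 111 CPM. ER chaperones rose in 7 of 22, and in 10 without replicate 1, with none lower, and HYOU1 went from 288, 310.0 and 285 to 337, 363 and 354 CPM (log2 0.26 ± 0.035). Replicate 1 moved the count for ribosome biogenesis. The list rose in 16 of 24 members with it, in 7 without it and in 4 in the 6 libraries alone, and NOLC1 (195, 185 and 181 to 232, 235 and 227 CPM) was among those that passed each time. Of the 50 cytosolic ribosomal proteins 5 rose without replicate 1 and 0 in the 6 libraries alone. Among 19 heat shock and cytosolic chaperone genes 4 rose and 1 fell, and 5 and 0 without replicate 1. In the 6 libraries alone 1 of them rose and 0 fell, beside 5.5% and 4.61% of all genes.

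The largest falls were in the metallothioneins, where 8 of 11 tested genes of the metallothionein and zinc list fell and 1 rose (median -0.51). Without replicate 1 the counts were 6 and 1, and in the 6 libraries alone 5 and 1. MT1F was at 18.7, 22.8 and 22.4 CPM at 20 µg/mL and 3.37, 4.54 and 5.44 CPM at 100 µg/mL (log2 -2.25 ± 0.15, adjusted p = 3.5e-17). MT1G was at 41.3, 61.9 and 51.0 CPM and 5.41, 13.5 and 15.4 CPM (log2 -2.15 ± 0.16). MT1E was at 112, 144 and 141 CPM and 28.6, 58.0 and 59.4 CPM (log2 -1.43 ± 0.13). In each of these the doses do not overlap, as the naming rule required, and replicate 1 is the lowest at 100 µg/mL. MT1X, with 4 metal response element matches above, was at 21.1, 25.0 and 24.5 CPM and 6.23, 12.5 and 13.5 CPM (log2 -1.11 ± 0.11, and -0.86 ± 0.092 without replicate 1). MT2A, with 7 matches, overlapped between the doses. It was at 186, 261 and 235 CPM and 102, 202 and 200.4 CPM, and its fall (log2 -0.43 ± 0.13, adjusted p = 0.011) did not hold without replicate 1 (-0.18 ± 0.10, adjusted p = 0.25). Replicate 1 at 100 µg/mL lies far below the others for MT2A, and replicates 2 and 3 lie within the range at 20 µg/mL. MT1M was likewise past the threshold only with replicate 1. The zinc exporter SLC30A1 fell (-0.51), as did SLC30A10 (-0.25), a manganese exporter of the same family, MTF1 did not pass (0.045), and the zinc importer SLC39A10 rose (0.71). Vehicle libraries were higher again, at 54.7, 41.7 and 40.5 CPM for MT1F, 126, 102 and 104 CPM for MT1G and 489.6, 397 and 399 CPM for MT2A. MT1 genes are closely similar copies on chromosome 16, so how reads were divided among them could shift single values.

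**Figure D3:**
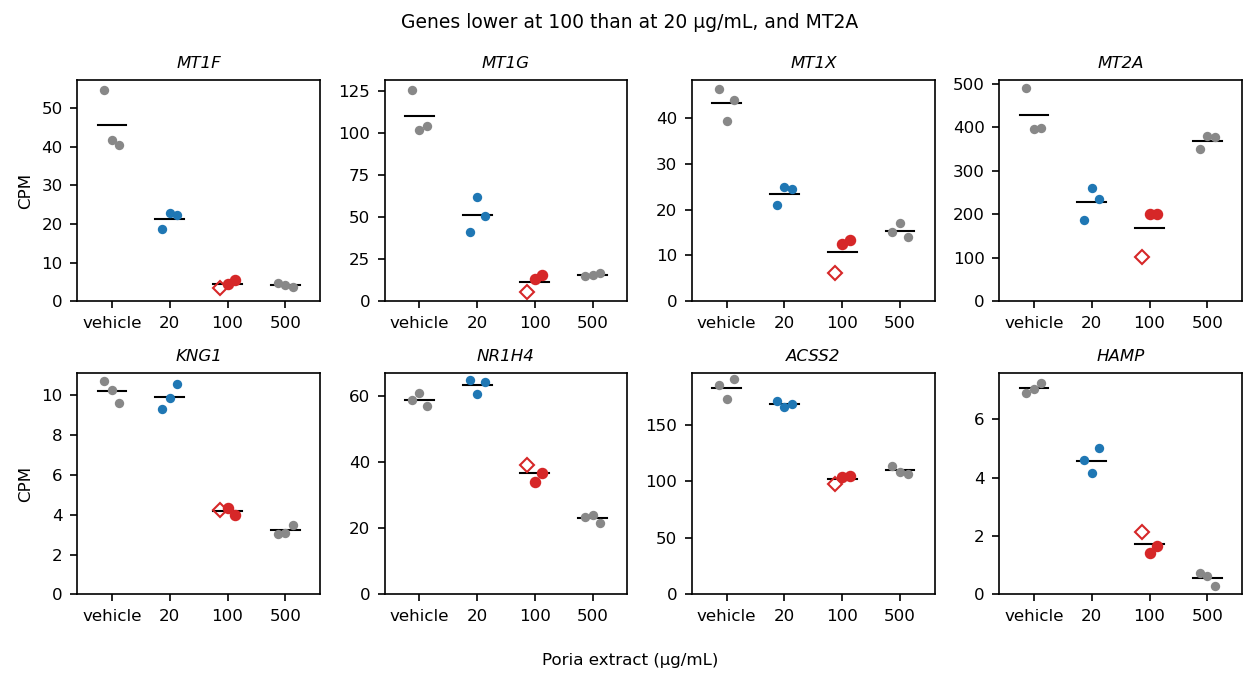
Normalised expression (CPM, linear axes from 0) of 8 genes in each library, drawn as in the plot of rising genes. The 2 doses do not overlap for MT1F, MT1G, MT1X, KNG1, NR1H4, ACSS2 and HAMP, while for MT2A only replicate 1 at 100 µg/mL (open diamond) is below the 20 µg/mL libraries. The naming rule required no overlap of MT1F, MT1G, MT1X and KNG1, and 28.8% of all genes tested had none in either direction.

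Plasma protein genes differed by class. Of 26 tested coagulation and complement genes 18 fell and 0 rose (median -0.20), 15 without replicate 1 and 9 in the 6 libraries alone. KNG1, the kininogen that feeds contact activation and bradykinin release, was at 9.30, 9.85 and 10.6 CPM and 4.24, 4.33 and 3.97 CPM (log2 -1.24 ± 0.097, adjusted p = 1.6e-14). C8A, a part of the complement membrane attack complex, went from 26.2, 27.2 and 25.2 to 15.6, 14.1 and 15.5 CPM (log2 -0.80 ± 0.057). The fibrinogen chains fell together, FGA from 2724, 2758 and 2917 to 1795, 1971 and 2026 CPM (log2 -0.54 ± 0.036), FGG by 0.50 and FGB by 0.24 on the log2 scale. Prothrombin, F2 (-0.0063), and C3 (-0.080) did not pass. Among 17 acute phase genes 8 fell and 2 rose. HP, the hemoglobin scavenger haptoglobin, went from 376, 349 and 385 to 236, 215 and 227 CPM (log2 -0.71 ± 0.061), and HPX, which binds heme, from 29.9, 29.4 and 31.2 to 21.7, 20.5 and 21.3 CPM. The members that rose were CP, ceruloplasmin (0.31), and SERPINA1 (0.15), the latter not past the threshold without replicate 1. ALB was at 13876, 14046 and 15229 CPM and 12640.5, 13202 and 13369.8 CPM and did not pass (adjusted p = 0.068). It belongs to a list of 11 albumin, AFP and plasma carrier genes, of which 4 fell and 2 rose, TTR, transthyretin (0.22), and AHSG, fetuin A (0.20). Of 14 apolipoprotein genes 3 fell and 2 rose (median 0.097), beside 8.99% and 9.84% of all genes. HAMP, the iron hormone hepcidin, was at 4.59, 4.15 and 5.03 CPM and 2.14, 1.42 and 1.66 CPM (log2 -1.41 ± 0.20, adjusted p = 3.2e-07), with no overlap at low levels.

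Of 21 tested transcription factors of hepatocytes 5 fell, 2 rose and 14 did not pass. Without replicate 1 the counts were 4 and 1, and in the 6 libraries alone 4 and 0. NR1H4, the bile acid receptor FXR, fell from 64.8, 60.7 and 64.3 to 39.1, 33.9 and 36.8 CPM (log2 -0.79 ± 0.054, adjusted p = 1.5e-16). CEBPA fell from 112, 106 and 111 to 82.0, 72.4 and 78.8 CPM (log2 -0.50 ± 0.068) and FOXA1 by 0.29, whereas HNF4A (0.054) did not pass. In the FXR and bile acid list, where KNG1 stands again, 6 of 12 fell and 3 rose. CYP7A1, which catalyses the committed step from cholesterol to bile acids, fell by 0.38, and CYP27A1 and the phospholipid pump ABCB4 fell by 0.24 and 0.38. NR0B2 (0.27), an FXR target that represses CYP7A1, rose, as did BAAT, which conjugates bile acids (12.2, 13.7 and 11.7 to 18.9, 17.8 and 19.5 CPM, log2 0.58 ± 0.084).

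Lipid synthesis genes fell as a group. Of 25 tested genes of the cholesterol list 20 fell and 1 rose (median -0.21), and 18 and 1 without replicate 1. TM7SF2, a sterol reductase, went from 86.6, 86.5 and 85.3 to 49.6, 55.1 and 58.8 CPM (log2 -0.66 ± 0.055). LSS, which closes the sterol ring, went from 291, 288 and 272 to 196, 193 and 197 CPM (log2 -0.54 ± 0.032, adjusted p = 1.5e-18). SQLE, which epoxidises squalene, fell by 0.28 on the log2 scale. Fatty acid and triglyceride synthesis fell in 12 of 18 and rose in none. ACSS2, which makes acetyl-CoA from acetate, was at 171, 166 and 168 CPM and 97.8, 104 and 105 CPM (log2 -0.72 ± 0.041, adjusted p = 4.4e-19). GPAM and DGAT1, the first and last steps of triglyceride assembly, fell by 0.60 and 0.58, while FASN (-0.11) and SREBF1 (0.016) did not pass. Of 12 LXR targets 4 fell, among them ABCG8 (-0.49). In the PPAR alpha list 7 of 21 fell and 3 rose, the risers including VNN1 (1.82, 1.84 and 2.41 to 3.93, 4.29 and 3.83 CPM) and the lipid droplet coat PLIN2 (log2 0.53 ± 0.11).

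Amino acid and xenobiotic metabolism split by gene. Of 22 tested methionine cycle and amino acid catabolism genes 9 fell and 4 rose. GNMT, which uses up S-adenosylmethionine, went from 4.88, 4.91 and 6.29 to 2.91, 2.55 and 2.81 CPM (log2 -0.95 ± 0.14), BHMT fell by 0.56, and CPS1, the entry enzyme of the urea cycle, by 0.43. ARG1, arginase, rose (6.85, 8.87 and 8.83 to 10.8, 11.8 and 15.4 CPM, log2 0.63 ± 0.12). CYP3A7, a fetal liver cytochrome P450, was at 11.7, 12.7 and 13.8 CPM and 5.26, 7.17 and 6.96 CPM (log2 -0.96 ± 0.10), and UGT1A1, which conjugates bilirubin, rose (13.7, 14.1 and 15.5 to 21.1, 24.6 and 21.0 CPM, log2 0.63 ± 0.067). CYP1A1, the standard readout of the aryl hydrocarbon receptor, was at 14.4, 13.4 and 13.8 CPM and 19.8, 16.2 and 16.1 CPM. It passed with replicate 1 (log2 0.32 ± 0.088) and not without it (adjusted p = 0.11). The remaining genes among the 12 largest falls were the ubiquitin ligase DTX4 (-0.96), the tight junction gene CLDN19 (-0.92), ACSM2A (-0.91) and AGMO (-0.90), which cleaves ether lipids. Their means at 20 µg/mL were all under 14 CPM.

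Mitotic genes fell in 18 of 32 tested members and rose in none (median -0.14), and in 12 without replicate 1. The changes were small, the largest being TTK, a spindle checkpoint kinase (27.4, 27.1 and 31.5 to 20.0, 22.0 and 23.2 CPM, log2 -0.40 ± 0.061), and CENPA, the centromeric histone (log2 -0.34 ± 0.063). MKI67 (-0.11), CDK1 (-0.094) and PLK1 (-0.11) did not pass. Of 33 S phase genes 4 rose and 3 fell, shares near those of all genes, and 0 and 1 in the 6 libraries alone. Of 26 p53 targets 3 rose and 7 fell, beside 9.84% and 8.99% of all genes. In the 6 libraries alone 2 of them rose and 4 fell, beside 5.5% and 4.61%. None of the 13 mitochondrially encoded protein genes passed. Without replicate 1, whose mitochondrial share is the highest, 3 of them fell, MT-ATP8, MT-ND6 and MT-ND4L, and the list median went from 0.11 to -0.21. Nuclear-encoded complex I genes passed in 1 of 38, which fell, and without replicate 1 in another that rose.

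The same 5-fold step was compared with that of 2 other extracts at matched doses, by the difference of the steps. Atractylodes gave 0 genes of its own past the threshold by edgeR, with 775 (4.82%) at an unadjusted p under 0.05. The Poria and Atractylodes steps differed for 1288 genes (8%), 721 with the Poria step the higher and 567 the lower, and 1093 held without replicate 1. The differences were 1.67 ± 0.083 for AKR1B10, 1.39 ± 0.12 for EGR1, 0.90 ± 0.054 for SQSTM1, -2.20 ± 0.18 for MT1F and -2.05 ± 0.21 for MT1G on the log2 scale. Among the lists, 16 NRF2 genes had the higher step with Poria and 1 the lower, beside 4.48% and 3.52% of all genes. The counts were 17 and 0 for immediate early genes, 1 and 14 for cholesterol genes, 1 and 7 for metallothionein and zinc genes, and 0 and 11 for mitotic genes.

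Licorice moved 244 genes over the same doses (1.52%), 108 up (0.671%) and 136 down (0.845%). Its step differed from that of Poria for 884 genes (5.49%), 509 with Poria the higher and 375 the lower, of which 752 held without replicate 1. NRF2 genes also rose with licorice, in 9 of 25. AKR1B10 rose by 0.71 ± 0.058 with licorice and by 1.76 ± 0.057 with Poria, a difference of 1.05 ± 0.081 (adjusted p = 1.2e-13). For NQO1 the values were 0.39 ± 0.044 and 0.61 ± 0.044, a difference of 0.22 ± 0.062 (adjusted p = 0.022). FTL did not differ past the threshold (0.065 ± 0.085, adjusted p = 0.79). Other genes were further apart. IGFBP1 was at -0.18 ± 0.16 with licorice and differed by 1.27 ± 0.23, and HAMP was at 0.32 ± 0.16 with licorice and differed by -1.73 ± 0.26. CYP1A1 rose more with licorice than with Poria. Licorice raised it by 2.01 ± 0.073, from 20.0, 20.7 and 19.2 to 78.5, 86.8 and 75.4 CPM, and the difference was -1.69 ± 0.11 (adjusted p = 1.9e-15). In lists, 12 NRF2 genes had the higher step with Poria and 1 the lower, beside 3.16% and 2.33% of all genes, against 10 and 0 for immediate early genes, 1 and 5 for metallothionein and zinc genes, and 0 and 16 for mitotic genes.

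**Figure D4:**
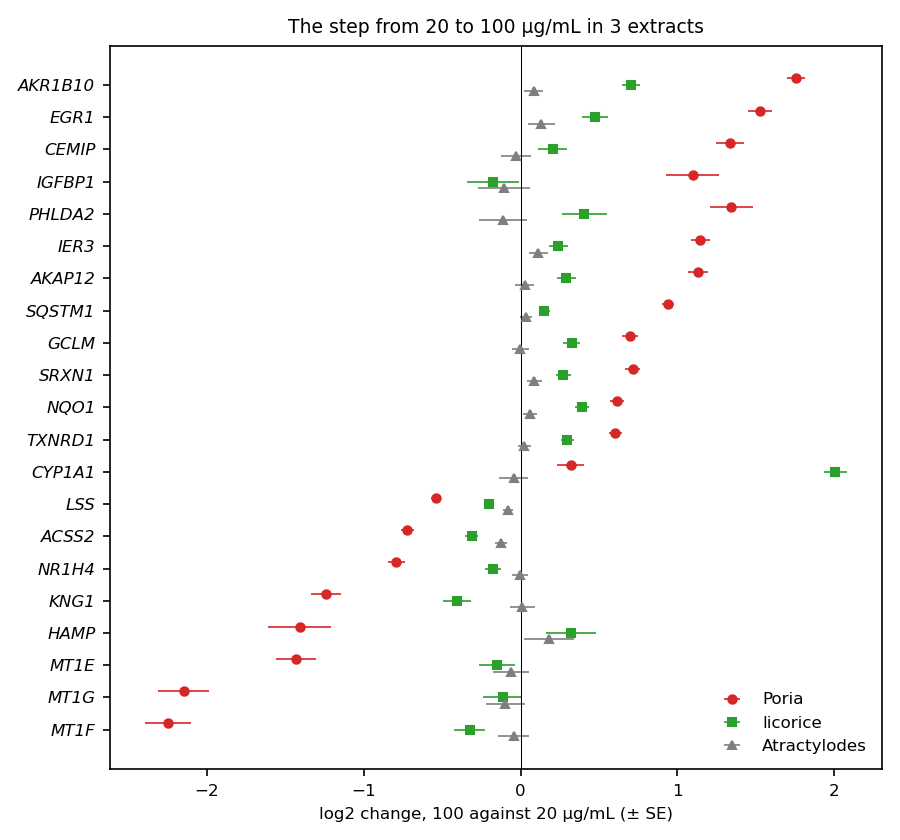
Log2 change ± SE from 20 to 100 µg/mL of 21 genes with Poria (circles), licorice (squares) and Atractylodes (triangles), each from 3 libraries a dose. CYP1A1 is at 2.01 with licorice and 0.32 with Poria, and MT1F, MT1G and MT1E are at -1.43 or lower with Poria and closer to 0 with the other extracts.

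The next step, from 100 to 500 µg/mL, shares the 100 µg/mL libraries with the first, so that a deviation there moves the steps in opposite directions. It called 3099 genes (19.3%), 1757 up (10.9%) and 1342 down (8.34%). The 2 steps differed for 209 genes (1.3%), 116 with the second step the higher and 93 the lower, and 94 held without replicate 1. Some genes rose in both steps with no difference past the threshold. AKAP12 was at 948, 903 and 934 CPM at 500 µg/mL, with a second step of 1.11 ± 0.061 after a first of 1.13 ± 0.062, and SQSTM1 at 726, 718 and 723 CPM, with 0.88 ± 0.037 after 0.94 ± 0.038. Their differences were -0.021 ± 0.11 and -0.056 ± 0.065 (adjusted p = 0.97 and 0.82). AKR1B10 rose less in the second step (0.87 ± 0.053, difference -0.89 ± 0.093, adjusted p = 8.6e-09), to 361, 377 and 356 CPM. CEMIP likewise had a second step of 0.49 ± 0.083 (difference -0.84 ± 0.15). Several falls did not continue. MT1F was at 4.74, 4.14 and 3.78 CPM at 500 µg/mL, ACSS2 at 114, 109 and 107 CPM with a difference of 0.82 ± 0.073, and LSS at 188, 189 and 180.3 CPM with a difference of 0.47 ± 0.056. HP (0.72 ± 0.11) was of the same kind, and 10 cholesterol genes had the higher second step and 0 the lower, beside 0.721% and 0.578% of all genes. MT2A turned: it was at 349, 381 and 378 CPM at 500 µg/mL, a second step of 1.13 ± 0.13 that differed from the first by 1.57 ± 0.23, and by 1.06 ± 0.19 without replicate 1 (adjusted p = 0.0008). HMOX1, not past the threshold in the first step, was at 82.9, 81.2 and 83.6 CPM at 500 µg/mL (difference 0.54 ± 0.095, adjusted p = 0.00046). ID3, a target of BMP signalling, was at 14.0, 16.3 and 18.2 CPM, then 17.2, 18.2 and 20.1 CPM, then 8.83, 10.4 and 8.75 CPM (difference -1.19 ± 0.14). HAMP fell in both steps, to 0.733, 0.634 and 0.284 CPM. The comparison of steps is the least firm of those given, since the libraries of its groups alone called 11 genes and glmTreat called 22.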

How the data were processed

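RNA of HepG2 cells was sequenced in 60 libraries with a directional kit and paired-end reads of 100 bases, per the labels' protocols. Per the submitters' processing notes, FastQC 0.11.9, Trim Galore 0.6.5, STAR 2.7.3a and RSEM 1.3.3 were used with hg38. The deposited values are RSEM expected counts per gene, judged from the tools named and from the values, of which 76.1% of those above 0 are whole. The annotation release is not given in the sources used here. The table holds 60675 genes in 270 columns, of which 210 belong to no sample here and were not used. Symbols came from a table of gene names and GENCODE v29 (41706 genes; genes without one hold 0.748% of counts). RSEM divides reads shared by similar genes among them.

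Expected counts were rounded. All 60 libraries were fitted with edgeR 4.0.16 (R 4.3.3), 1 mean per group, TMM factors of 0.926 to 1.03, filterByExpr (minimum count 10, total 15), glmQLFit (40 residual degrees of freedom) and glmQLFTest, with Benjamini-Hochberg adjustment over all genes tested within each comparison at 0.05 and a prior count of 0.125. CPM are rounded counts per M of the TMM-scaled library size, so they compare libraries and not genes of different length. Contrasts were 100 against 20 µg/mL of Poria, that step minus the same step of Atractylodes or licorice, and 500 against 100 minus 100 against 20 µg/mL of Poria. Alternatives used limma 3.58.1 and DESeq2 1.42.0.

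The comparison, the 50 gene lists and the tests were chosen with earlier results of these data known. Lists are described by counts and medians beside those of all genes. Genes were named by a rule. It took the 12 top rises and the 12 top falls by log2 change among genes with a symbol that passed with and without replicate 1 at 100 µg/mL and in the 6 libraries alone, with 5 CPM or more in a group and no overlap. Added were up to 3 members of each list that passed with and without that replicate, 16 fixed genes, and up to 4 genes in each direction for each difference. List members named outside this rule were picked with their values in view. Some genes that the rule names are not reported here. On simulated counts of 16093 genes drawn for this comparison, the fit recovered 99 of 100 genes set to change 1.5-fold and all 100 set to change 2-fold, with 4.78% false among 209 calls. The changed genes were all at 5 CPM or more. The simulation held no outlying library, no replicate effect and no other difference between groups. Its shares therefore do not carry over to the real calls, whose median change was 1.21-fold.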

Additional observations from a re-analysis of the deposited data

Results flagged for a closer look

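The results below are flagged because the Poria step from 20 to 100 µg/mL differed from the same step of another extract by a test of the difference itself. No explanation was tested. Against Atractylodes 1288 genes differed. The genes named by rule, on the log2 scale, were AKR1B10 (1.67), PHLDA2 (1.46), EGR1 (1.39) and CEMIP (1.36), higher in the Poria step, and MT1F (-2.20), MT1G (-2.05), HAMP (-1.59) and MT1E (-1.37), lower in it. Against licorice 884 genes differed. The named genes were IGFBP1 (1.27), CEMIP (1.13) and AKR1B10 (1.05), higher in the Poria step, and MT1G (-2.04), MT1F (-1.92), HAMP (-1.73) and CYP1A1 (-1.69), lower in it. Both sets of differences use the same 6 Poria libraries, so they are not independent of each other. HAMP is at low levels, at or under 5.03 CPM in the 6 Poria libraries.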

How the results depend on the processing

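The count for 100 against 20 µg/mL stayed within 1.5 times of 3031 with DESeq2 size factors (3031), the DESeq2 Wald test (2771), limma voom with quality weights (3784), a mean of at least 1 CPM (3100), no filter (2598), without mitochondrially encoded genes (3036) and with unrounded counts (3021). Leaving out 1 library at a time gave 2313 to 2904. It moved to 1475 with only the libraries of the groups compared, which has 4 residual degrees of freedom, and to 418 with glmTreat against 1.2-fold. The 6 libraries without replicate 1 at 100 µg/mL, an alternative chosen after seeing the data, gave 2252. For the difference from Atractylodes (1288) the counts were 657 with its own groups only, 227 with glmTreat and 952 to 1417 leaving out 1 library. For the difference from licorice (884) they were 1488 with voom, 385 with its own groups, 93 with glmTreat and 636 to 1027 leaving out 1 library. For the second step against the first (209) they were 436 with voom, 331 with no filter, 11 with its own groups, 22 with glmTreat and 126 to 204 leaving out 1 library, the counts being 126, 138 and 136 without replicate 1 or 2 at 100 µg/mL or replicate 2 at 20 µg/mL. What moved these counts was not tested.

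Same-numbered Poria libraries at 100 and 20 µg/mL correlated in their deviations from the group means by 0.305, 0.171 and -0.018, so the replicate numbers were not taken to pair the samples, and replicate 3 at 100 µg/mL correlated best with replicate 2 (0.216). A further fit had a block for each replicate number within each leading number of the column names. The labels do not say what that leading number marks. The counts were 3450, 1607, 1192 and 291 for the 4 comparisons in the order above. In the own groups alone the same kind of block gave 2004, 1209, 784 and 22.

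Of 142 genes named for the step, 76 kept their direction and side of the threshold in every alternative run. Of their 2555 values under alternatives 144 lost the threshold, 9 gained it and 0 changed sign. Of the 144, 62 were lost with glmTreat, 18 with only the 6 libraries and 2 without replicate 1 at 100 µg/mL. The naming rule required top rises and falls to pass in both of the latter fits, and list members to pass without that replicate. The losses in these fits were therefore limited by the rule and are no measure of robustness. Over all genes, 670 of 3031 calls did not hold in the same direction without that replicate. At 3 counts per library the depth does not resolve genes under about 0.153 CPM in the shallowest of the 6 libraries.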

Other observations

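Other single genes also moved over the same step. In the IGF axis, IGFBP2 and IGFBP3 rose beside IGFBP1, while IGFBP4 (0.042) and IGFBP6 (0.39) did not pass. IGFBP3 was at 1.2, 1.39 and 1.10 CPM at 20 µg/mL and 2.6, 3.89 and 3.00 CPM at 100 µg/mL (log2 1.36 ± 0.19), and IGFBP2 went from 8.24, 9.0 and 8.96 to 11.1, 14.3 and 16.5 CPM (log2 0.68 ± 0.098). In both the doses do not overlap. TRIB1, a pseudokinase known to regulate hepatic lipogenesis, went from 62.7, 78.2 and 70.0 to 115, 111 and 119.6 CPM (log2 0.71 ± 0.058). MLXIPL, which codes for the glucose-sensing factor ChREBP, fell from 187, 188 and 179 to 146, 139.8 and 142 CPM (log2 -0.37 ± 0.060). Of 11 tested genes of the TXNIP and ChREBP list 3 rose and 4 fell, and 2 and 2 in the 6 libraries alone.

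In the Wnt list 4 of 13 tested fell and 1 rose, and 2 and 0 in the 6 libraries alone. DKK1, a secreted Wnt antagonist and Wnt target, was at 115, 104 and 106 CPM and 75.1, 83.1 and 92.9 CPM (log2 -0.38 ± 0.074), and SP5, another Wnt target, fell by 0.32. RNF43, which removes Wnt receptors, rose by 0.14. Of 16 iron genes 2 rose, both ferritin chains, and 3 fell, among them TFR2, transferrin receptor 2 (50.0, 50.6 and 46.8 to 41.4, 38.6 and 43.5 CPM, log2 -0.26 ± 0.062), while TFRC did not pass. Over all genes 9.84% rose and 8.99% fell, and in lists this short the counts for the TXNIP and ChREBP, Wnt and iron lists are given as values of single genes and not as a change of the list. S100A14, a calcium-binding protein, was at 1.86, 1.58 and 2.24 CPM and 5.00, 4.90 and 4.98 CPM (log2 1.40 ± 0.13), and at 6.6, 6.97 and 6.57 CPM at 500 µg/mL. APOM, an apolipoprotein of HDL, rose to 119, 129 and 136 CPM at 100 µg/mL and was at 105, 111 and 111 CPM at 500 µg/mL, a difference between the steps of -0.55 ± 0.11 (adjusted p = 0.0013).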
